A study of Mus musculus with 9 samples.

Results

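The genes described here are the 37 rows of the deposited count table that lie on the mouse mitochondrial chromosome, out of 57126 rows in all. They were chosen by their chromosome alone and comprise 13 protein genes, 2 ribosomal RNA (rRNA) genes and 22 transfer RNA (tRNA) genes. Of these, 28 are annotated on the plus strand and 9 on the minus strand, namely mt-Nd6 and 8 tRNA genes. RNA was sequenced from mouse plasmacytoid dendritic cells (pDCs), the dendritic cells known for type I interferon production, which had been sorted by flow cytometry. The cells were treated with oxidized mitochondrial DNA (Ox-mtDNA, 3 libraries), mitochondrial DNA (mtDNA, 3 libraries) or phosphate-buffered saline (PBS, the vehicle, 3 libraries). Strain, genotype, age, dose and duration of treatment are not given in the sources used here, nor whether the replicates came from separate animals or cultures, so a p-value here reflects only how far these libraries spread, which may be technical. The treatments are themselves DNA of the chromosome described, and RNA was extracted with TRIzol and columns and then selected for polyadenylated molecules.

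Mitochondria carry a small circular genome that is transcribed from both strands into long precursors. The tRNAs lie between most of the other genes, and their excision by RNase P and ELAC2 releases the individual messenger and ribosomal RNAs. The proteins encoded are subunits of respiratory complexes I, III, IV and V, which work together with many more subunits encoded in the nucleus. Most mitochondrial messenger RNAs and the 3′ ends of the rRNAs carry short poly(A) tails, whereas mature tRNAs end in CCA.

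The sequences of 7 tRNA genes are shown because results below turn on how their counts varied between libraries relative to their neighbours. They are printed 5′ to 3′ as the gene strand, with the anticodon in capitals. The sequences are from the GENCODE M21 transcripts (GRCm38), in which all 37 mitochondrial genes have the same start, end and strand as in the deposited table (GRCm39). The first 4, for alanine, asparagine, cysteine and tyrosine, follow each other on the minus strand between mt-Nd2 and mt-Co1, at chrM:5018-5086, chrM:5089-5159, chrM:5192-5257 and chrM:5260-5326. The next 2, for serine and leucine, lie on the plus strand just before mt-Nd5, at chrM:11613-11671 and chrM:11671-11741. The last, for the other leucine codon family, lies on the plus strand between mt-Rnr2 and mt-Nd1, at chrM:2676-2750.
mt-Ta: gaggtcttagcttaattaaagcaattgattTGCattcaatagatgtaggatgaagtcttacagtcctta
mt-Tn: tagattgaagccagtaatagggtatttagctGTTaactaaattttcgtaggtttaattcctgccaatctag
mt-Tc: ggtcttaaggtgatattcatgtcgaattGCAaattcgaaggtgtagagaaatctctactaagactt
mt-Ty: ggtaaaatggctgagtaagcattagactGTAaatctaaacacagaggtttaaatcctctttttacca
mt-Ts2: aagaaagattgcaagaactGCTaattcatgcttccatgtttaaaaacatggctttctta
mt-Tl2: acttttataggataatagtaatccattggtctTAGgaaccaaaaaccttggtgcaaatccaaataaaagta
mt-Tl1: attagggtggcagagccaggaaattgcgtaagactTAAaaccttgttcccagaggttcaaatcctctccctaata

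Total counts per library ranged from 16029951 to 25378884. Replicate 3 stood apart in every group in a way that follows base composition. Nuclear genes with more than 60% GC (503 genes with a mean count of at least 50) had a median log2 difference between replicate 3 and the mean of replicates 1 and 2 of -3.25 in Ox-mtDNA, -3.36 in mtDNA and -3.69 in PBS. For nuclear genes under 42% GC (1593 genes) it was 0.18 in Ox-mtDNA, 0.25 in mtDNA and 0.53 in PBS. The 13 mitochondrial protein genes have between 31.9% and 41.1% GC. In 11 of them with enough counts the median difference was -0.39 in Ox-mtDNA, 0.85 in mtDNA and 0.93 in PBS. Ox-mtDNA replicate 2 stood apart as well. Its summed level of 14 pDC markers, Siglech and Irf8 among them, was 4993 CPM (counts relative to library size after TMM scaling), against 7221 to 13013 CPM in the 8 other libraries. This library was also lowest in the summed markers of conventional dendritic cells (355 CPM, against 576 to 827 CPM). The same held for those of monocytes and macrophages (454 CPM, against 622 to 1772 CPM). Irf8 itself was lower in PBS replicate 3 (389 CPM) than in Ox-mtDNA replicate 2 (808 CPM). Ox-mtDNA replicate 2 had the highest levels of Cd79a (182 CPM, against 33.4 to 80.9 CPM in the others) and Ms4a1 (113 CPM, against 18.5 to 51.1 CPM), which mark B cells. The B cell markers Cd79b (67.7 CPM) and Ighm (2409 CPM) were higher in PBS replicate 3, at 102 and 2988 CPM. Over the whole list of 7 B cell markers, which Ighm dominates, the summed level was 3047 CPM in Ox-mtDNA replicate 2. By group it was 2825 to 3047 CPM in Ox-mtDNA, 1726 to 2995 CPM in mtDNA and 2472 to 3247 CPM in PBS. The part of these differences in the results below was not tested.

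Ox-mtDNA libraries held more mitochondrial counts than mtDNA or PBS libraries in replicates 1 and 2, and not in replicate 3. The 37 genes made up 2.90%, 3.05% and 2.68% of all counts in Ox-mtDNA replicates 1, 2 and 3, against 1.64%, 1.46% and 2.78% in mtDNA and 1.69%, 1.52% and 3.18% in PBS. The ranges of Ox-mtDNA and PBS overlapped, because PBS replicate 3 was the highest of all 9 libraries. Group means were 2.88% ± 0.188 in Ox-mtDNA, 1.96% ± 0.716 in mtDNA and 2.13% ± 0.912 in PBS (SD, n = 3 each). Without replicate 3 they were 2.97% in Ox-mtDNA, 1.55% in mtDNA and 1.60% in PBS. At these depths the exact 95% binomial intervals were within 0.0082 percentage points of each share. They cover counting error only. In such bulk libraries more mitochondrial RNA per cell and a change in the cells sampled cannot be told apart.

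**Figure D1:**
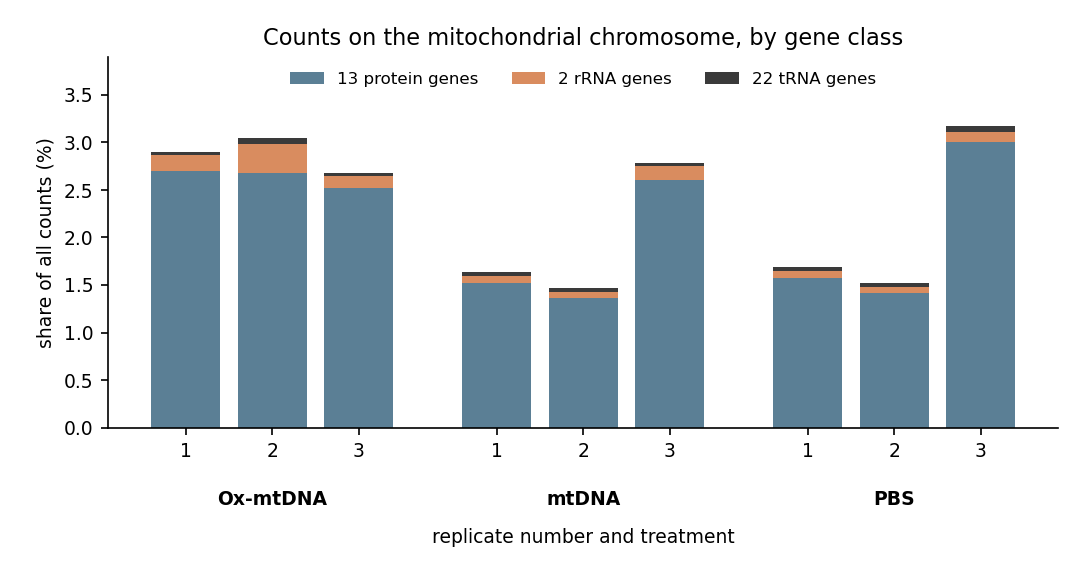
Share of all counts (%) on the mitochondrial chromosome in each of the 9 libraries, stacked by gene class, with the replicate number under each bar. The 3 Ox-mtDNA bars stand between 2.68% and 3.05%, while in mtDNA and PBS replicates 1 and 2 lie between 1.46% and 1.69% and replicate 3 reaches 2.78% and 3.18%.

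Protein genes held most of these counts. They made up 93.2%, 87.8% and 94.2% of mitochondrial counts in Ox-mtDNA, 92.9%, 93.1% and 93.8% in mtDNA and 93.1%, 93.3% and 94.6% in PBS. The low value of Ox-mtDNA replicate 2 stood against a high share of the rRNA genes. In replicates 1, 2 and 3 the rRNA share was 5.61%, 10.2% and 4.61% in Ox-mtDNA, 4.70%, 4.59% and 4.96% in mtDNA and 4.72%, 4.29% and 3.35% in PBS. The tRNA genes held 1.17%, 1.995% and 1.16% in Ox-mtDNA, 2.44%, 2.31% and 1.20% in mtDNA and 2.20%, 2.40% and 2.06% in PBS. All 3 Ox-mtDNA libraries thus lay below all 3 PBS libraries in tRNA share, but Ox-mtDNA replicate 2 (1.995%) was only just below PBS replicate 3 (2.06%). Their totals held 10.2% and 3.35% rRNA counts, and the order of these 2 libraries depends on those counts being in the total.

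Per length, the levels spanned more than 3 orders of magnitude along the chromosome and followed no class. A fragment was counted for every gene it overlapped. This raises the levels per kb of short genes, such as the tRNA genes, relative to long ones. Over all 9 libraries mt-Co1, the catalytic subunit of complex IV, was highest at 6815 CPM per kb. It was followed by mt-Cytb, the only mitochondrial subunit of complex III, at 2978 CPM per kb and mt-Nd1, a membrane subunit of complex I, at 2107 CPM per kb. The complex I subunits mt-Nd6, mt-Nd5, mt-Nd4 and mt-Nd2 came next among the protein genes, at 1588, 1345, 1102 and 919 CPM per kb. The rRNA genes of the small subunit (mt-Rnr1) and the large subunit (mt-Rnr2) had 561 and 477 CPM per kb.

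A contiguous run of genes from mt-Td to mt-Nd4l was far lower. It holds the other complex IV subunits mt-Co2 (19.4 CPM per kb) and mt-Co3 (16.4 CPM per kb), the complex V subunits mt-Atp8 (28.4 CPM per kb) and mt-Atp6 (21.3 CPM per kb), and the complex I subunits mt-Nd3 (2.53 CPM per kb) and mt-Nd4l (4.35 CPM per kb). The 4 tRNA genes within the run, mt-Td, mt-Tk, mt-Tg and mt-Tr, had between 0.892 and 7.27 CPM per kb. Near-identical nuclear copies that are annotated as genes cover nearly all of mt-Co2, mt-Atp6, mt-Co3, mt-Nd3 and mt-Nd4l in this run. They cover 21.1% of mt-Atp8 and none of the 4 tRNA genes, and reach into mt-Co1 and mt-Nd4 beside the run. Only annotated transcripts were searched, so whether nuclear sequence between these copies also matches mt-Atp8 or the tRNA genes was not tested. The counting left out fragments with more than 1 alignment, as described with the nuclear copies below.

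**Figure D2:**
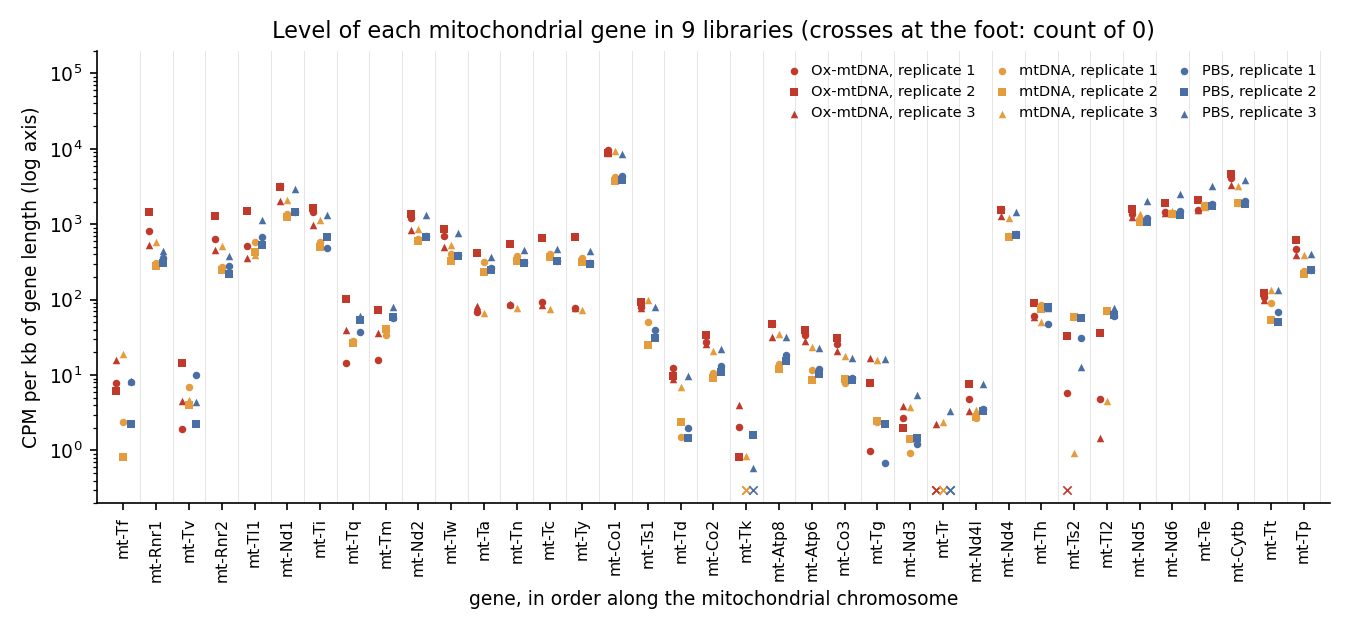
Level of the 37 mitochondrial genes in CPM per kb of gene length (log axis) in the order of the chromosome, with 1 point per library, colour for the treatment and shape for the replicate. The run from mt-Td to mt-Nd4l lies far below mt-Co1 on its left and mt-Nd4 on its right in every library, and the tRNA genes mt-Ta, mt-Tn, mt-Tc and mt-Ty fall into a high and a low set of libraries.

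Comparing Ox-mtDNA with PBS asks whether oxidized mitochondrial DNA changed the transcripts of these genes. No mitochondrial gene passed the threshold of an adjusted p of 0.05 in edgeR's quasi-likelihood test, of 34 tested, and over all 17555 tested genes 0% passed. At an unadjusted p under 0.05 there were 4, namely mt-Rnr1, mt-Rnr2, mt-Atp6 and mt-Co3, where 9.81% of all tested genes passed. DESeq2 called 0 of 33 members with an adjusted p, where it called 1.6% of genes. Without Ox-mtDNA replicate 2 none of these 4 genes had an unadjusted p under 0.05, and 6 tRNA genes did (mt-Tm, mt-Ta, mt-Tn, mt-Tc, mt-Ty and mt-Tl2), beside 11.7% of all tested genes. In replicates 1 and 2 alone there were 17 of 33 members, beside 15.4%, and with the replicate number as a block 11 of 34, beside 19.1%. All 3 Ox-mtDNA libraries lay above all 3 PBS libraries for 7 of the 34 (mt-Rnr1, mt-Rnr2, mt-Co1, mt-Co2, mt-Atp8, mt-Atp6 and mt-Co3), beside 7.39% of all tested genes, and below them for 1 (mt-Tl2), beside 8.08%. The median log2 fold change of the 13 protein genes, all of which were tested, was 0.60, with 11 above 0, and that of all tested genes was 0.06. Without PBS replicate 3 the median of the protein genes was 1.02, and without PBS replicate 2 it was 0.41.

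In the fit to all 9 libraries the rRNA genes had the highest fold changes of the 34 tested members for Ox-mtDNA against PBS. In replicates 1, 2 and 3, mt-Rnr1 had 766, 1385 and 501 CPM in Ox-mtDNA, against 297, 268 and 553 CPM in mtDNA and 337, 290.2 and 426 CPM in PBS. For mt-Rnr2 the levels were 994, 2028 and 728 CPM in Ox-mtDNA, 433, 393 and 821 CPM in mtDNA and 439.5, 348 and 598 CPM in PBS. Ox-mtDNA replicate 2 was the highest library for both genes, and every Ox-mtDNA library exceeded every PBS library but not mtDNA replicate 3. The log2 fold change of Ox-mtDNA against PBS was 1.33 for mt-Rnr1 (SE 0.44, adjusted p = 0.472) and 1.44 for mt-Rnr2 (SE 0.47, adjusted p = 0.472, edgeR). Without Ox-mtDNA replicate 2, the library with the lowest summed pDC markers, these were 0.84 for mt-Rnr1 and 0.89 for mt-Rnr2. Both were below the 1.03 of mt-Atp6 and the 1.01 of mt-Co3. The 2 rRNAs kept a similar proportion, with 1.30, 1.46 and 1.45 counts of mt-Rnr2 per count of mt-Rnr1 in Ox-mtDNA, 1.46, 1.47 and 1.48 in mtDNA and 1.31, 1.20 and 1.41 in PBS.

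Among complex IV subunits, mt-Co1 had 14806, 13564 and 13689.6 CPM in Ox-mtDNA, against 6526, 5747 and 14381 CPM in mtDNA and 6801, 5981 and 13264 CPM in PBS. The Ox-mtDNA libraries and both replicate 3 libraries of the other groups were high, and the other 4 libraries were low. Its log2 fold change against PBS was 0.69 (SE 0.44, adjusted p = 0.716, edgeR), and within replicates 1 and 2 alone it was 1.16. Without PBS replicate 2 it was 0.47. For mt-Co2 the levels were 18.8, 23.1 and 17.9 CPM in Ox-mtDNA, 7.26, 6.34 and 14.2 CPM in mtDNA and 9.12, 7.42 and 15.1 CPM in PBS. For mt-Co3 they were 20.1, 24.6 and 16.5 CPM in Ox-mtDNA, 6.19, 6.998 and 14.2 CPM in mtDNA and 7.07, 6.65 and 13.2 CPM in PBS. In both genes each Ox-mtDNA library lay above all others, with the replicate 3 libraries of mtDNA and PBS nearest. Log2 fold changes of Ox-mtDNA against PBS were 0.92 for mt-Co2 (SE 0.42, adjusted p = 0.537) and 1.18 for mt-Co3 (SE 0.44, adjusted p = 0.473, edgeR).

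The complex V subunits had a similar split of libraries. mt-Atp6, part of the proton channel, had 23.5, 27.2 and 19.0 CPM in Ox-mtDNA, 7.90, 5.95 and 16.1 CPM in mtDNA and 8.33, 7.11 and 15.5 CPM in PBS, and its log2 fold change against PBS was 1.17 (SE 0.47, adjusted p = 0.482, edgeR). mt-Atp8, a small subunit whose gene overlaps mt-Atp6, had 9.86, 9.68 and 6.60 CPM in Ox-mtDNA, 2.88, 2.48 and 7.18 CPM in mtDNA and 3.81, 3.14 and 6.49 CPM in PBS. Ox-mtDNA replicate 3 and PBS replicate 3 were almost level for mt-Atp8, and mtDNA replicate 3 was above both.

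For complex III, mt-Cytb had 4629.9, 5263 and 3772 CPM in Ox-mtDNA, against 2196, 2204 and 3722 CPM in mtDNA and 2318, 2129 and 4431 CPM in PBS. Its log2 fold change against PBS was 0.62 (SE 0.37, adjusted p = 0.670, edgeR), and PBS replicate 3 lay within the range of the Ox-mtDNA libraries. Without that library it was 1.02, and without PBS replicate 2 it was 0.42.

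The complex I subunits had fold changes of different size. mt-Nd1, mt-Nd2 and mt-Nd4 had log2 fold changes of Ox-mtDNA against PBS of 0.50 (SE 0.38), 0.35 (SE 0.35) and 0.60 (SE 0.37), none past the threshold. Without PBS replicate 3 these were 0.92, 0.71 and 0.99, and without PBS replicate 2 they were 0.31, 0.17 and 0.41. mt-Nd4, a core membrane subunit, had 2172, 2155 and 1753 CPM in Ox-mtDNA, 950.1, 921 and 1690.4 CPM in mtDNA and 1029.8, 993 and 2002 CPM in PBS. For mt-Nd1 the levels were 3081, 2949 and 1946 CPM in Ox-mtDNA, 1316, 1205 and 2023 CPM in mtDNA and 1406, 1389 and 2835 CPM in PBS. Those of mt-Nd2 were 1269.8, 1428 and 876 CPM in Ox-mtDNA, 666, 632 and 908 CPM in mtDNA and 733, 707 and 1368 CPM in PBS. In all 3 genes Ox-mtDNA replicates 1 and 2 were above replicates 1 and 2 of both other groups, and Ox-mtDNA replicate 3 was below PBS replicate 3.

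By contrast mt-Nd5 and mt-Nd6, which overlap at their 3′ ends on opposite strands, had log2 fold changes near 0 for Ox-mtDNA against PBS. mt-Nd5 had 2489, 2927 and 2276 CPM in Ox-mtDNA, 2064, 1963 and 2465 CPM in mtDNA and 2238, 1967 and 3684 CPM in PBS (log2 fold change of Ox-mtDNA against PBS -0.04, SE 0.29). mt-Nd6, the only protein gene annotated on the minus strand, had 744, 983 and 734 CPM in Ox-mtDNA, 701, 712 and 779.9 CPM in mtDNA and 768, 694 and 1302 CPM in PBS (log2 fold change -0.17, SE 0.29). Neither fold change passed the threshold, and both turned positive, at 0.37 for mt-Nd5 and 0.25 for mt-Nd6, in replicates 1 and 2 alone. The counting did not use strand, so a fragment in the stretch that the genes share was counted for both of them. A fragment from either strand over the rest of mt-Nd6 was counted for mt-Nd6, so its counts cannot be assigned to the minus strand.

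Set against mt-Cytb, the next protein gene along the chromosome, these genes separated Ox-mtDNA from PBS in every replicate. In replicates 1, 2 and 3 there were 538, 556 and 603 counts of mt-Nd5 per 1000 counts of mt-Cytb in Ox-mtDNA, against 939.9, 891 and 662 in mtDNA and 965, 924 and 831 in PBS. For mt-Nd6 there were 161, 187 and 195 per 1000 in Ox-mtDNA, 319, 323 and 209.6 in mtDNA and 332, 326 and 294 in PBS. All 3 Ox-mtDNA libraries were below all other libraries in both ratios, and mtDNA replicate 3 was nearest to them. The tRNA gene mt-Te (glutamate), which directly follows mt-Nd6 on the chromosome, kept close to it at between 142 and 176 counts per 1000 of mt-Nd6. A fragment that spans both genes was counted for each. The ratio of mt-Nd4 to mt-Cytb had no such order, with 469, 409 and 465 per 1000 in Ox-mtDNA, 433, 418 and 454 in mtDNA and 444, 467 and 452 in PBS. These ratios were chosen after their values were seen and carry no test. The genes annotated on the minus strand, mt-Nd6 and 8 tRNA genes, held 2.90%, 4.01% and 3.37% of mitochondrial counts in Ox-mtDNA, 6.08%, 6.49% and 3.43% in mtDNA and 6.07%, 6.16% and 5.48% in PBS. As the counting did not use strand, these shares can include fragments from either strand.

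**Figure D3:**
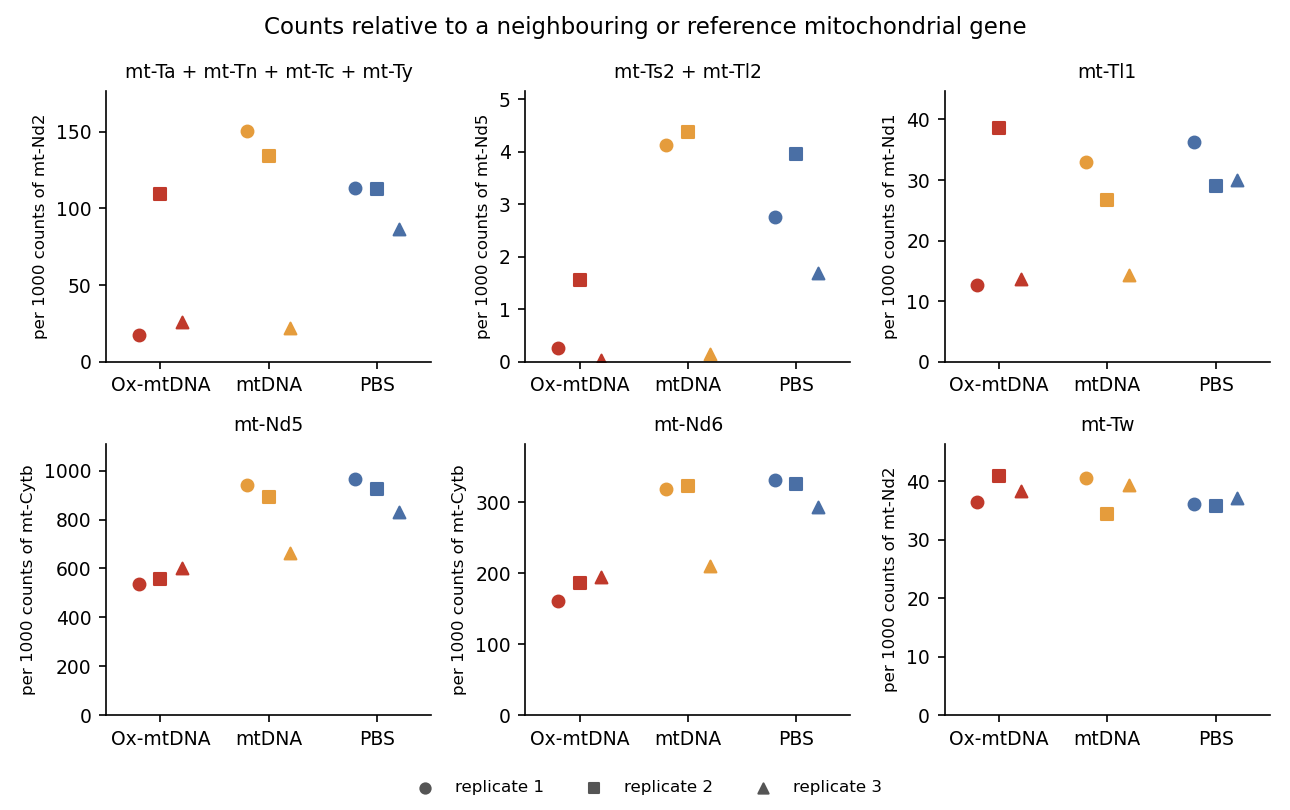
Counts of 6 mitochondrial genes or gene groups per 1000 counts of another mitochondrial gene, with 1 point per library, treatment on the horizontal axis and shape for the replicate. Ox-mtDNA replicates 1 and 3 and mtDNA replicate 3 lie low for the tRNA genes of the top row, all Ox-mtDNA libraries lie below all PBS libraries for mt-Nd5 and mt-Nd6, and mt-Tw stays between 34.3 and 40.9 in every library.

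The tRNA genes on the minus strand between mt-Nd2 and mt-Co1 split the libraries in another way. mt-Ta had 4.79, 28.8 and 5.67 CPM in Ox-mtDNA, 22.1, 16.3 and 4.57 CPM in mtDNA and 18.4, 16.9 and 25.6 CPM in PBS. Its neighbours mt-Tn, mt-Tc and mt-Ty had the same pattern, with 4.84 to 6.21 CPM in Ox-mtDNA replicates 1 and 3 and mtDNA replicate 3 and 19.95 to 45.0 CPM in the 6 other libraries. The 4 genes together had 17.5, 109 and 26.0 counts per 1000 counts of mt-Nd2 in Ox-mtDNA, 150.5, 134 and 21.8 in mtDNA and 113, 113 and 86.5 in PBS. A fragment that spans several of these genes was counted for each, so they are not 4 separate measurements. The log2 fold change of mt-Ta was -0.63 for Ox-mtDNA against PBS (SE 0.79, not past the threshold). It was -1.97 without Ox-mtDNA replicate 2 and -0.29 without Ox-mtDNA replicate 1.

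The same 3 libraries were low for the serine and leucine tRNA genes before mt-Nd5. mt-Tl2 had 5, 49 and 2 counts in Ox-mtDNA (0.338, 2.59 and 0.103 CPM), 94, 92 and 6 counts in mtDNA (5.02, 5.07 and 0.326 CPM) and 94, 86 and 144 counts in PBS (4.37, 4.43 and 5.47 CPM). mt-Ts2 had 5, 37 and 0 counts in Ox-mtDNA, 66, 64 and 1 in mtDNA and 39, 65 and 20 in PBS, and the count of 0 allows up to 0.155 CPM. For mt-Tl2 all 3 Ox-mtDNA libraries lay below all 3 PBS libraries, while for mt-Ts2 the groups overlapped. The log2 fold change of mt-Tl2 against PBS was -2.22 (SE 1.22, adjusted p = 0.630, edgeR). It was -4.44 without Ox-mtDNA replicate 2 and -1.74 without Ox-mtDNA replicate 3. Counted together per 1000 counts of mt-Nd5, both genes had 0.271, 1.55 and 0.0453 in Ox-mtDNA, 4.14, 4.38 and 0.154 in mtDNA and 2.76, 3.96 and 1.69 in PBS.

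mt-Tl1, on the plus strand between mt-Rnr2 and mt-Nd1, had 12.6, 38.5 and 13.7 counts per 1000 counts of mt-Nd1 in Ox-mtDNA, 33.0, 26.7 and 14.4 in mtDNA and 36.3, 29.0 and 30.0 in PBS. Low values thus fell again in Ox-mtDNA replicates 1 and 3 and mtDNA replicate 3. Other tRNA genes varied less relative to a neighbour over the 9 libraries. mt-Tw (tryptophan), the direct neighbour of mt-Ta on the opposite strand, had 34.3 to 40.9 counts per 1000 counts of mt-Nd2, and mt-Tp (proline) had 6.16 to 7.89 per 1000 of mt-Cytb. mt-Ti (isoleucine) had 24.1 to 38.8 per 1000 of mt-Nd1. The ends of mt-Tw and mt-Nd2 overlap, as do those of mt-Ti and mt-Nd1, and a fragment over both genes was counted for each. These ratios are therefore not of separate measurements. Over the 9 libraries mt-Ti had 33.9 to 112 CPM, mt-Tw 21.7 to 58.4 CPM, mt-Tp 14.6 to 41.3 CPM and mt-Te 106 to 219 CPM.

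The glutamine and methionine tRNA genes mt-Tq and mt-Tm, which lie between mt-Nd1 and mt-Nd2, had 1.01, 7.25 and 2.79 CPM and 1.08, 5.02 and 2.53 CPM in Ox-mtDNA. In mtDNA they had 2.03, 1.87 and 2.01 CPM and 2.35, 2.81 and 2.94 CPM, and in PBS 2.65, 3.87 and 4.29 CPM and 3.91, 4.12 and 5.47 CPM. The mtDNA libraries were all below the PBS libraries in both. The tRNA genes mt-Th and mt-Tt had 3.16 to 6.14 CPM and 3.35 to 8.96 CPM over the 9 libraries, and mt-Ts1 had 1.71 to 6.74 CPM. The least counted were mt-Tr, with counts only in replicate 3 of each group (3 in Ox-mtDNA, 3 in mtDNA and 6 in PBS), mt-Tk with 0 to 5 counts and mt-Tv with 2 to 19 counts. These 3 genes did not pass the filter on low counts, which the other 34 members passed.

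mt-Tg (glycine) and mt-Td (aspartate), both in the run of low genes, passed it narrowly. mt-Tg had 1, 10 and 22 counts in Ox-mtDNA, 3, 3 and 20 in mtDNA and 1, 3 and 29 in PBS, so it was highest in replicate 3 of every group. mt-Td had 13, 13 and 12 counts in Ox-mtDNA, 2, 3 and 9 in mtDNA and 3, 2 and 18 in PBS, and mt-Tf (phenylalanine) had 1 to 24 counts. Of the protein genes in this run, the complex I subunit mt-Nd4l had 0.801 to 2.27 CPM over the 9 libraries, and its groups overlapped.

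The comparison of mtDNA with PBS asks what mitochondrial DNA not labelled as oxidized did, and most fold changes of the well-counted members were small. edgeR called 0 of the 34 members, beside 0% of all tested genes, and none had an unadjusted p under 0.05, beside 2.62%. DESeq2 also called 0, beside 0.0545%. No member was higher in all mtDNA libraries than in all PBS libraries, beside 5.58% of all tested genes, and 2, mt-Tq and mt-Tm, were lower, beside 4.96%. Their log2 fold changes were -0.87 (SE 0.65) and -0.74 (SE 0.54). The 13 protein genes had a median log2 fold change of -0.19, with 2 above 0, beside 0.02 for all tested genes. Values of single genes were 0.03 (SE 0.44) for mt-Co1, -0.13 (SE 0.37) for mt-Cytb, -0.28 (SE 0.29) for mt-Nd5 and 0.25 (SE 0.46) for mt-Rnr2. The median was -0.61 without mtDNA replicate 3 and 0.22 without PBS replicate 3.

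Ox-mtDNA against mtDNA sets the oxidized DNA against the DNA not labelled as oxidized. edgeR again called 0 of 34 members, beside 0% of all tested genes, and DESeq2 called 0, beside 0%. At an unadjusted p under 0.05 there were 5 members, mt-Rnr1, mt-Rnr2, mt-Co2, mt-Atp6 and mt-Co3, beside 2.4% of all tested genes. Without Ox-mtDNA replicate 2 none of these 5 did, and 4 tRNA genes did (mt-Tn, mt-Tc, mt-Ty and mt-Tl2), beside 3.58%. In replicates 1 and 2 alone there were 18 of 33, beside 15%, and with the replicate block 14 of 34, beside 6.81%. In 7 members all Ox-mtDNA libraries lay above all mtDNA libraries (mt-Td, mt-Co2, mt-Atp6, mt-Co3, mt-Nd4, mt-Cytb and mt-Tp), beside 2.04% of all tested genes, and in none below, beside 2.79%. All 13 protein genes had a log2 fold change above 0 and their median was 0.77, beside 0.04 for all tested genes. The largest of the protein genes was mt-Atp6 at 1.22 (SE 0.47), followed by mt-Co3 at 1.16 (SE 0.44) and mt-Co2 at 1.10 (SE 0.42), while mt-Nd5 and mt-Nd6 had 0.24 (SE 0.29) and 0.17 (SE 0.29). mt-Rnr1 had 1.25 (SE 0.44) and mt-Rnr2 had 1.19 (SE 0.47), and without Ox-mtDNA replicate 2 they had 0.76 and 0.65. The comparisons with PBS share their PBS libraries, and each of the 3 comparisons shares a group with both others.

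**Figure D4:**
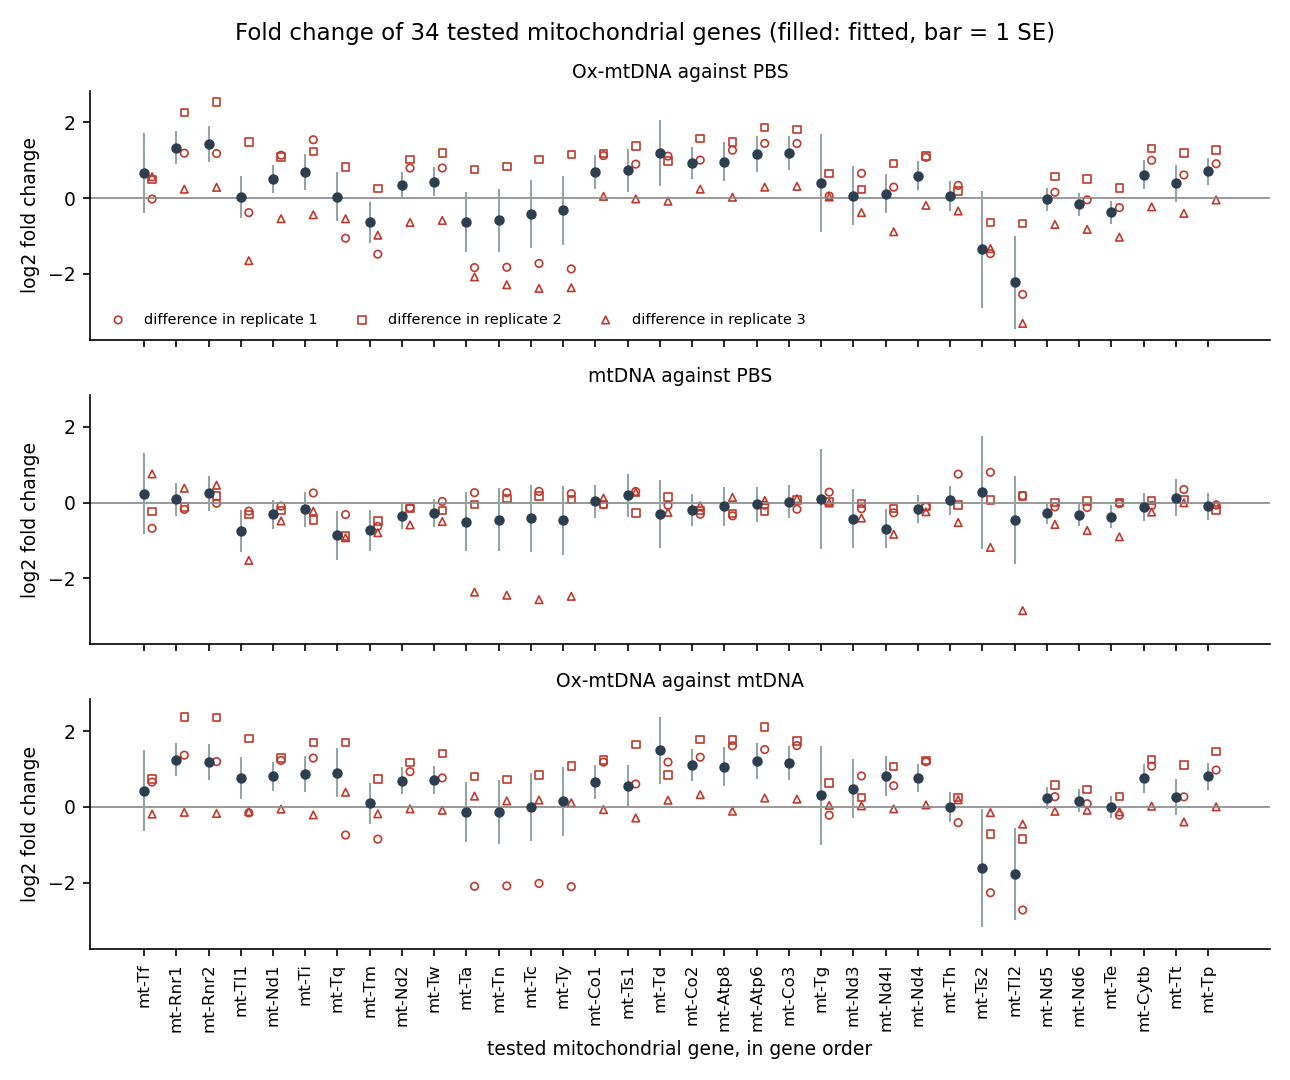
Log2 fold change of the 34 tested mitochondrial genes in the 3 comparisons, in gene order, with the fitted value and 1 SE (filled points and bars) and the difference between libraries of the same replicate number (open symbols). In Ox-mtDNA against PBS and against mtDNA the open squares and circles of replicates 2 and 1 lie above the triangle of replicate 3 for nearly all protein genes.

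Nuclear copies of mitochondrial sequence limit what was counted in the run from mt-Co2 to mt-Nd4. On chromosome 1 of GRCm39, between 24650616 and 24655278 on the minus strand, the annotation holds 7 genes that aligned to mitochondrial genes with at least 99% identity. Gm28661 matched 681 of the 684 bases of mt-Co2 with 100% identity, Gm10925 678 of the 681 bases of mt-Atp6 and Gm28437 783 of the 784 bases of mt-Co3. Gm10222 matched 294 of the 297 bases of mt-Nd4l, Gm28439 matched 876 of the 1378 bases of mt-Nd4, and Gm29216 matched 483 of the 1545 bases of mt-Co1. A fragment inside an identical stretch aligns to both places and was not counted for either. Counts of mt-Co2, mt-Atp6 and mt-Co3 therefore leave out such fragments, and their levels are not comparable to those of mt-Co1 or mt-Cytb. Where the fragments that were counted lie was not examined.

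Only mt-Nd3 and mt-Co1 differ from their copies within the aligned bases, at 1 base each. With positions counted from 1 at the 5′ end of the mitochondrial gene, the substitutions are T3C in Gm28438 for mt-Nd3 (chrM:9461) and A1066T in Gm29216 for mt-Co1 (chrM:6393). The stretches around them are shown because these bases let a fragment be assigned, with the differing base in capitals.
mt-Nd3: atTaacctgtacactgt
Gm28438: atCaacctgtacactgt
mt-Co1: ggaAttgttttatccaac
Gm29216: ggaTttgttttatccaac

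Of the genes copied over nearly their whole length, mt-Atp6 and mt-Co3 were counted in numbers close to those of their copies. mt-Atp6 held 52.4%, 52.1% and 50.7% of the counts of mt-Atp6 and Gm10925 in Ox-mtDNA, 51.7%, 45.4% and 52.8% in mtDNA and 50.3%, 52.9% and 51.8% in PBS. The share of mt-Co3 was 42.9% to 57.2% over the 9 libraries. mt-Co2 held 33.8% to 47.0% and mt-Nd4l 22.4% to 45.0%, so the copy had more counts in every library. Some copies had log2 fold changes close to those of the mitochondrial genes. For Ox-mtDNA against PBS it was 1.16 in Gm28437 (SE 0.41, adjusted p = 0.472, edgeR), beside 1.18 in mt-Co3. For Ox-mtDNA against mtDNA it was 1.17 in Gm10925 (SE 0.43), beside 1.22 in mt-Atp6. Others differed more. For mtDNA against PBS, Gm29216 had 0.43, beside 0.03 in mt-Co1, and Gm28439 had -0.46, beside -0.18 in mt-Nd4. No gene of a list of 8 annotated copies, of which 6 were tested, passed the adjusted threshold in any comparison with edgeR or DESeq2. Gm10222, the copy of mt-Nd4l, is not in this list, so these results do not cover it. At an unadjusted p under 0.05 there were 4 for Ox-mtDNA against PBS, 0 for mtDNA against PBS and 2 for Ox-mtDNA against mtDNA, all higher in Ox-mtDNA, where 9.81%, 2.62% and 2.4% of all tested genes passed in the same comparisons. Without Ox-mtDNA replicate 2 there was 1 for Ox-mtDNA against PBS, beside 11.7%.

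mt-Nd3 and Gm28438 were counted in proportions that varied more between libraries. mt-Nd3 held 24.1% (14 of 58), 4.78% (13 of 272) and 32.1% (26 of 81) of the pair's counts in Ox-mtDNA replicates 1, 2 and 3. It held 4.11% (6 of 146), 6.82% (9 of 132) and 33.8% (24 of 71) in mtDNA and 7.44% (9 of 121), 9.17% (10 of 109) and 29.6% (50 of 169) in PBS. The exact 95% intervals of Ox-mtDNA replicate 1 (13.9% to 37.2%) and of the 3 replicate 3 libraries lay above those of Ox-mtDNA replicate 2 (2.57% to 8.03%), mtDNA replicates 1 (1.52% to 8.73%) and 2 (3.16% to 12.5%) and PBS replicate 1 (3.46% to 13.7%). The interval of PBS replicate 2 (4.49% to 16.2%) overlapped that of Ox-mtDNA replicate 1. Counts of Gm28438 were lowest in Ox-mtDNA replicates 1 and 3 (44 and 55) and mtDNA replicate 3 (47), the libraries that were also low in mt-Ta and mt-Tl2, and between 99 and 259 in the other 6.

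**Figure D5:**
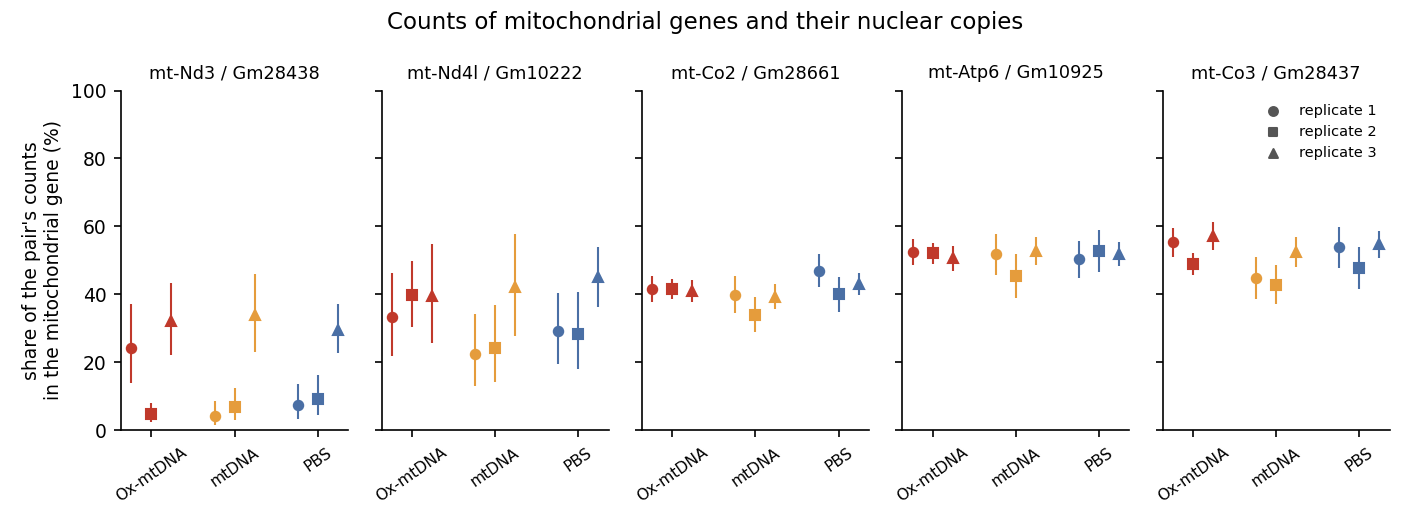
Share (%) of the counts of a mitochondrial gene and its nuclear copy that were counted in the mitochondrial gene, for 5 pairs and 9 libraries, with exact 95% binomial intervals. For mt-Nd3 and Gm28438 the share is between 4.11% and 9.17% in 5 libraries and between 24.1% and 33.8% in the other 4, while mt-Atp6 and Gm10925 stay between 45.4% and 52.9%.

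Mitochondrial DNA was itself the treatment in 6 of the 9 samples. Reads from DNA that covered the chromosome evenly would fall on uniquely aligning bases at an even rate. As a fragment was counted for every gene it overlapped, a short gene would get more counts per base than a long one. Over all 9 libraries mt-Tv was the least covered gene outside the run from mt-Td to mt-Nd4l. This valine tRNA gene, between the rRNA genes, had 2, 19 and 6 counts over its 69 bases in Ox-mtDNA, 9, 5 and 6 in mtDNA and 15, 3 and 8 in PBS. It was not the lowest in every library. For example, mt-Tf had 1 count in mtDNA replicate 2 and mt-Ts2 had 0 in Ox-mtDNA replicate 3. Extended at that count per base to all 37 genes, the counts amounted to 0.0962%, 0.673% and 0.260% of mitochondrial counts in Ox-mtDNA, 0.691%, 0.428% and 0.263% in mtDNA and 0.949%, 0.233% and 0.222% in PBS. For so short a gene the count per base would overstate an even coverage, by an amount that was not tested. The groups overlapped, and these values rest on 2 to 19 counts. mt-Tv was chosen after its values were seen, and whether the added DNA gave reads, evenly or unevenly, was not tested.

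Nuclear genes that serve the mitochondrial genome did not pass the threshold either. Of 32 genes of mitochondrial transcription and RNA processing, all tested, edgeR and DESeq2 called 0 in each comparison. At an unadjusted p under 0.05 edgeR gave 1 for Ox-mtDNA against PBS, beside 9.81% of all tested genes, and 0 for the others. The lowest unadjusted p was that of Fastkd5, which processes mitochondrial messenger RNAs, with a log2 fold change of -0.90 (SE 0.37, adjusted p = 0.489) for Ox-mtDNA against PBS and -0.76 (SE 0.37) for mtDNA against PBS. For Ox-mtDNA against mtDNA it was Mterf2, of the mitochondrial transcription termination factor family, at -0.56 (SE 0.37). Tfam, which packages mitochondrial DNA and activates its transcription, had the next lowest p for Ox-mtDNA against PBS. Of 14 genes of mitochondrial DNA replication and packaging, 4 had a fold change above 0 for Ox-mtDNA against PBS, and the list's median was -0.20, beside 0.06 for all tested genes. None was called by edgeR or DESeq2, and 1, the DNA ligase gene Lig3, had an unadjusted p under 0.05 for Ox-mtDNA against PBS, beside 9.81% of all tested genes.

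Most nuclear subunits that join the mitochondrial ones in complex I had fold changes below 0 against PBS. In the fits to all 9 libraries edgeR and DESeq2 called none in this or the other complexes. None had an unadjusted p under 0.05 in edgeR, which 9.81%, 2.62% and 2.4% of all tested genes had. These shares are for Ox-mtDNA against PBS, mtDNA against PBS and Ox-mtDNA against mtDNA, where edgeR called 0% of genes in each and DESeq2 called 1.6%, 0.0545% and 0%. Of 37 complex I subunits, 7 were above 0 and 30 below for Ox-mtDNA against PBS. Their median log2 fold change was -0.17, beside 0.06 for all tested genes. The lowest p was that of Ndufb7 at -0.59 (SE 0.30, adjusted p = 0.595, edgeR), which was -0.34 without PBS replicate 3. For mtDNA against PBS all 37 were below 0, with a median of -0.22 and the lowest p for Ndufs5 at -0.40 (SE 0.28), which was -0.15 without PBS replicate 3. For Ox-mtDNA against mtDNA 21 were above 0, with a median of 0.03 and the lowest p for Ndufa13 at -0.20 (SE 0.24). Of 10 nuclear subunits of complex IV, 9 were above 0 for Ox-mtDNA against PBS with a median of 0.09. Of 18 of complex V there were 11, with a median of 0.02, of 9 of complex III there were 3, with a median of -0.03, and none of the 4 subunits of complex II, which has no mitochondrial gene, was above 0 (median -0.18). These counts depended on single libraries. Without Ox-mtDNA replicate 2 there were 17 complex I subunits above 0 and 20 below for Ox-mtDNA against PBS (median -0.03), and the medians of complexes III, IV and V were 0.11, 0.28 and 0.16. In replicates 1 and 2 alone 11 complex I subunits were above 0 and 26 below for mtDNA against PBS (median -0.07). With the replicate block 1 complex I subunit had an unadjusted p under 0.05 in edgeR for Ox-mtDNA against PBS, beside 19.1% of all tested genes. In replicates 1 and 2 alone 1 subunit of complex III did so in that comparison, beside 15.4%. For Ox-mtDNA against mtDNA 1 of complex III and 2 of complex V did so in these replicates, beside 15%. Summed over the complex I list, levels were 1616, 1248 and 2332 CPM in Ox-mtDNA, 1433, 1475 and 2068 CPM in mtDNA and 1581, 1555 and 2678 CPM in PBS, highest in replicate 3 of every group.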

How the data were processed

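RNA-seq of sorted mouse pDCs was analysed in 9 libraries, grouped by their titles. The authors deposited raw counts per gene, with no normalization. The tools were fastp 0.23.4, STAR 2.7.11b and featureCounts 2.0.1 on build GRCm39, per the submitters' processing notes. As the command line in the file headers shows, featureCounts took paired fragments over exons of the GENCODE M34 basic annotation without strand. It gave a fragment that overlapped several genes to each of them and left out fragments with more than 1 alignment. The deposited table also gives each gene's length in bases, which was used for levels per kb.

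The whole table was fitted with edgeR 4.0.16 (R 4.3.3): filterByExpr at a minimum count of 10 kept 17555 genes, libraries were scaled by TMM, and robust quasi-likelihood dispersions were shared by all 3 groups (6 residual degrees of freedom). P-values were adjusted by Benjamini-Hochberg over all tested genes, with a threshold of 0.05. DESeq2 1.42.0 was an alternative. The script was tested on simulated data. Differences between same-numbered libraries use log2(CPM + 0.5). Sequence identity with annotated transcripts was found with BLAST 2.17.0, and anticodons as the expected triplet between paired stems. Symbols were matched for 51884 genes. Intervals are exact binomial.

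All 37 members are accounted for. The rule named all protein and rRNA genes, tRNA genes that passed the filter or were among the 3 lowest, and up to 2 members of each nuclear list by unadjusted p. Members, lists and rules were chosen with earlier results of these data known. Same-numbered libraries deviated together from their group means in every pair (correlations of 0.487 to 0.897). Differently numbered replicates 1 and 2 correlated as well (0.524 to 0.708), and each correlated negatively with replicate 3 of another group. Ox-mtDNA replicate 1 correlated at 0.614 with PBS replicate 2 and at 0.596 with PBS replicate 1. The correlations thus set replicate 3 apart and do not show that replicates 1 and 2 are paired by number. The fit to all 9 libraries used no pairing, and a replicate block was an alternative. Total counts of 16029951 to 25378884 make counting error small for all but mt-Nd3, mt-Nd4l and the tRNA genes with few counts.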

Additional observations from a re-analysis of the deposited data

How the results depend on the processing

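In none of the settings tried was a mitochondrial gene called. Settings were DESeq2 size factors, scaling from nuclear genes, the DESeq2 Wald test, no filter, a replicate block, replicates 1 and 2 only, the 6 libraries of each comparison alone, and each library left out. Over the whole table, DESeq2 called 328 genes for Ox-mtDNA against PBS and 10 for mtDNA against PBS, the replicate block called 1 and replicates 1 and 2 alone called 25 for Ox-mtDNA against PBS, where edgeR called 0. The cause was not tested. The replicate block changed no call of a member, and with it the median of the 13 protein genes was 0.71 for Ox-mtDNA against PBS.

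The median of the protein genes was 0.41 to 1.02 for Ox-mtDNA against PBS and 0.63 to 1.15 for Ox-mtDNA against mtDNA with 1 library left out. In replicates 1 and 2 alone it was 1.12 and 1.22. For mtDNA against PBS it was -0.61 to 0.22 with 1 library left out, and -0.11 with only the 6 libraries. The mean mitochondrial share in Ox-mtDNA was 3.25% against counts of nuclear protein-coding genes only.

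Of 52 fold changes, 39 kept their sign throughout. For Ox-mtDNA against PBS, replicates 1 and 2 alone gave 0.37 for mt-Nd5, 0.25 for mt-Nd6, 0.027 for mt-Tn, 0.22 for mt-Tc and 0.32 for mt-Ty, and the replicate block gave 0.014 for mt-Nd5. For mtDNA against PBS, replicates 1 and 2 alone gave -0.15 for mt-Rnr1 and -0.061 for mt-Co1, and no filter gave -0.043 for mt-Co1. With 1 library left out, Ox-mtDNA against PBS ranged from -2.16 to 0.052 for mt-Ty, -0.22 to 0.27 for mt-Nd5 and -0.35 to 0.15 for mt-Nd6. For mtDNA against PBS the ranges were -0.38 to 0.26 for mt-Rnr1, -0.23 to 0.47 for mt-Rnr2, -0.58 to 0.46 for mt-Co1, -0.66 to 0.11 for mt-Nd1, -0.61 to 0.020 for mt-Nd2, -0.60 to 0.22 for mt-Nd4, -0.46 to 0.033 for mt-Nd5 and -0.51 to 0.27 for mt-Cytb. Depth limits genes with few counts, such as mt-Nd3, mt-Nd4l, mt-Tl2 and mt-Tg, and leaves the abundant genes limited by the spread between replicates.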
